A study of Homo sapiens with 6 samples.

Results

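A set of 10 amino acid transporter genes was followed in RNA-seq of HGC27 gastric cancer cells with and without overexpression of the 3′-UTR of *FN1*, the fibronectin gene. The 10 genes, *SLC7A11*, *SLC7A5*, *SLC3A2*, *SLC7A1*, *SLC1A4*, *SLC1A5*, *SLC38A1*, *SLC38A2*, *SLC6A9* and *SLC43A1*, were chosen by name from 39739 gene rows, and their difference between the groups was known when they were chosen. Their fold changes are therefore given as a description, without a test. HGC27 is an established human cell line from gastric cancer. The HGC27-FN1 3′-UTR cells (3 libraries) carried a lentiviral construct for stable overexpression of the *FN1* 3′-UTR and had been selected with puromycin. The HGC27-control cells (3 libraries) were the same line without that overexpression. The study's text does not say whether these control cells carried a lentiviral vector or were selected with puromycin. Both were grown in RPMI-1640 medium with fetal bovine serum. The labels do not say whether the 3 libraries of a group came from separate cultures, so every p-value measures only the spread between these libraries, which may be technical.

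Amino acids cross the plasma membrane through carriers of several families. Light chain exchangers of the SLC7 family swap 1 amino acid for another and need the glycoprotein encoded by *SLC3A2* as a heavy chain to reach the cell surface, while carriers of the SLC1, SLC6 and SLC38 families couple uptake to sodium. Tumour cells use these carriers to take up glutamine, leucine, serine and cystine for growth and for the synthesis of glutathione. Several of the 10 genes are known targets of ATF4, the transcription factor of the integrated stress response, which is made when amino acids run short.

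Expression was given as RPKM, in which read numbers are divided by exon length and by library size. The exon length joins all annotated exons of a gene and can exceed the transcript made. For *SLC3A2* it was 5178 bases, against 1893 coding bases and 167 of 3′-UTR in the annotated transcript with the longest coding sequence. For *SLC7A5* it was 4745 bases, against 1521 and 2947. Levels, ratios and shares between genes are therefore approximate, while the same gene can be compared between groups. The libraries held between 16357085 and 37037532 assigned reads, and 3 reads, the limit that a count of 0 allows, corresponded to 0.081 to 0.183 reads per 1000000 assigned (counting error only). *FN1* itself averaged 0.780 ± 0.037 RPKM with the construct and 0.516 ± 0.037 RPKM without it (SD, n = 3 each). This gave a log2 fold change of 0.52 (SE 0.11, limma adjusted p = 0.029), a call that was lost when any of the 6 libraries was left out (adjusted p from 0.061 to 0.098). The *FN1* row covers the exons of the whole gene, while the construct carried the 3′-UTR, so the row does not measure the degree of 3′-UTR overexpression. The epithelial markers *EPCAM*, *CDH1*, *KRT8* and *KRT18* were called higher in HGC27-FN1 3′-UTR cells. *KRT19* was at 1.23 to 2.42 RPKM against 0.058 to 0.097 RPKM. It passed the minimum for testing, 0.1 RPKM in 3 libraries, only through the HGC27-FN1 3′-UTR libraries, so its call is not read as a test. The 5 epithelial markers summed to 18.2 to 27.0 RPKM against 2.59 to 2.99 RPKM, while the mesenchymal marker *VIM* was at 289 to 315 RPKM against 286 to 324 RPKM. The 4 gastric mucosa markers with a row (*MUC5AC*, *MUC6*, *TFF1* and *CLDN18*) summed to at most 0.238 RPKM in any library, near 0. Of the 4 fibroblast markers, *LUM* and *COL1A1* were called higher (sum of 4, 57.6 to 59.2 RPKM against 34.8 to 43.9 RPKM, with the *COL1A1* call lost without control library 2 at an adjusted p of 0.052). Of the 2 immune markers with a row, *PTPRC* was at most at 0.016 RPKM in any library. *CD68* was at 1.81 to 2.15 RPKM against 2.06 to 2.37 RPKM and made up nearly all of their sum. Of the endothelial markers *PECAM1* was at 0 in all libraries and *CDH5* at most at 0.0057 RPKM. The part of these markers in the results was not tested, and in such bulk RNA fewer cells of a type and less RNA per cell cannot be told apart.

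All 10 transporter genes were expressed above the minimum for testing, set at 0.1 RPKM or more in no fewer than 3 libraries. In 6 of them (*SLC3A2*, *SLC7A1*, *SLC1A4*, *SLC1A5*, *SLC6A9* and *SLC43A1*) every HGC27-FN1 3′-UTR library was below every HGC27-control library, in 1 (*SLC7A11*) every library was above, and in 3 (*SLC7A5*, *SLC38A1* and *SLC38A2*) the groups overlapped. Among all 23299 genes tested, 21.7% had every HGC27-FN1 3′-UTR library below and 14.3% had every library above, and since the genes were chosen on this contrast nothing is read from the difference. The median log2 fold change of the 10 genes was -0.29, with a range from -1.0 to 0.12, beside a median of -0.04 over all genes tested. The control means spanned a 74.4-fold range, from *SLC1A4* to *SLC7A5*, and the within-group coefficient of variation was between 0.88% and 9.93%.

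**Figure D1:**
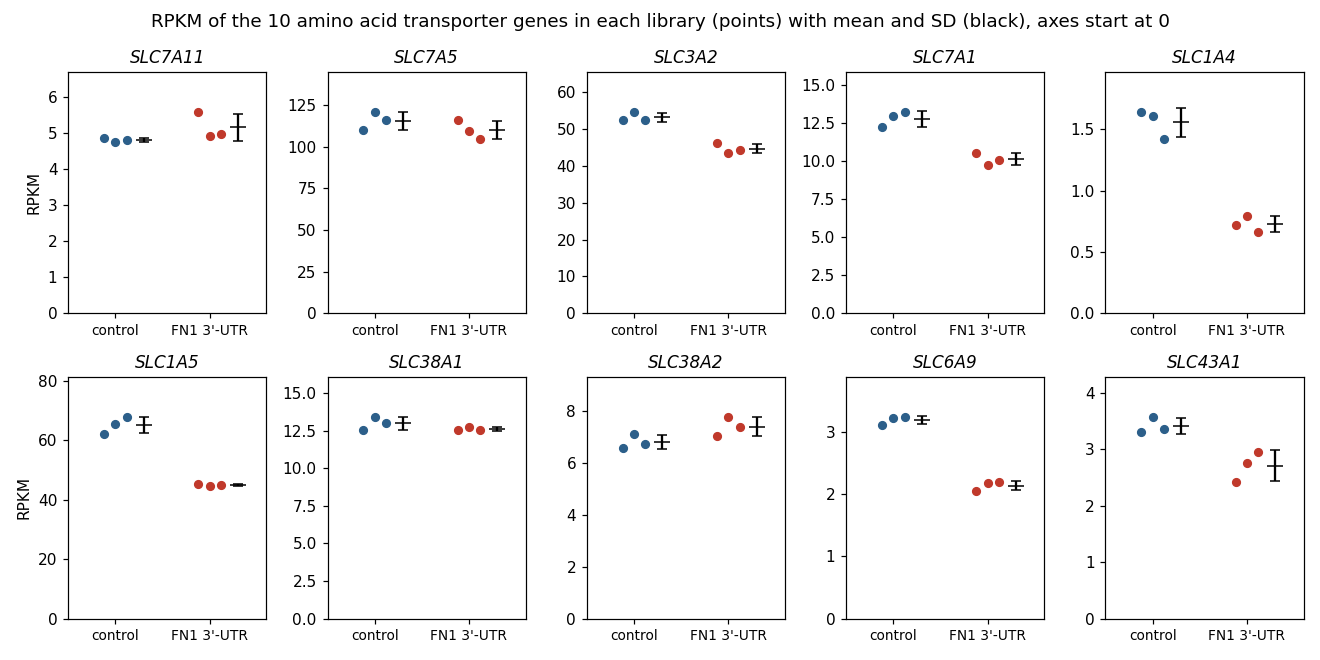
RPKM (y axis, from 0) of each of the 10 genes in the 3 HGC27-control libraries (blue) and the 3 HGC27-FN1 3′-UTR libraries (red), with the mean and SD of each group in black. The red points of *SLC1A4*, *SLC1A5* and *SLC6A9* lie well below the blue ones, while those of *SLC7A5*, *SLC38A1* and *SLC38A2* overlap with them.

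The promoters of the genes were searched for 3 short motifs, and the windows with the letters that ATF4 and its C/EBP partners are known to bind are shown, since *ATF4* itself differed between the groups. The RefSeq promoters of GRCh38.p14, 250 bases before to 50 bases after each listed start, covered 9 of the 10 genes with 16 starts. *SLC7A11* had no entry. The C/EBP-ATF response element, TGATGNAAN on either strand, occurred in 5 of the 9 genes (*SLC1A4*, *SLC3A2*, *SLC38A1*, *SLC7A1* and *SLC1A5*), each time at 1 start. For *SLC7A1* this is the only listed start, while the other listed starts of *SLC1A4*, *SLC3A2*, *SLC38A1* and *SLC1A5* lacked it. In *SLC1A5* the start with the element is the most downstream listed. Which starts these cells use was not tested. It occurred in 3.61% of all 35116 promoters and in at least 1 promoter of 2.73% of the 10948 tested genes in the RefSeq table. The 5 windows are shown with the element in capitals, read along the strand that carries it. Those of *SLC1A4* and *SLC3A2* run against the direction of the gene and the others run with it, and the *SLC3A2* window is cut short by the end of the promoter.
*SLC1A4*, chr2:64989391-64989399: cggctggagaTGATGCAAAcgggagccgc
*SLC3A2*, chr11:62881735-62881743: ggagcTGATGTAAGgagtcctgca
*SLC38A1*, chr12:46266512-46266520: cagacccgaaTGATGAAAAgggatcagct
*SLC7A1*, chr13:29595673-29595681: ggcgcactgcTGATGAAACctggcgccgg
*SLC1A5*, chr19:46784903-46784911: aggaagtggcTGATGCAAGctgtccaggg
Of the 5 genes with the element, 4 had all HGC27-FN1 3′-UTR libraries below the control libraries, and in *SLC38A1* the groups overlapped. Of the 4 genes in the table without it in the searched promoters, *SLC6A9* and *SLC43A1* were lower in all libraries, and *SLC7A5* and *SLC38A2* overlapped. Sequence outside these promoters was not searched. Since the genes were chosen on this contrast, nothing is read from this split, and a part of ATF4 was not tested. The antioxidant response element bound by NRF2, TGACNNNGC, occurred in 4 of the 9 genes (*SLC7A5*, *SLC3A2*, *SLC7A1* and *SLC1A5*) and in 19.0% of the tested genes (13.3% of all promoters). The E-box bound by MYC, CACGTG, occurred in 3 of the 9 (*SLC7A5*, *SLC1A5* and *SLC43A1*) and in 12.3% of the tested genes (7.26% of all promoters). A match of letters is a description of the sequence and shows no binding.

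*SLC1A4* and *SLC1A5* encode ASCT1 and ASCT2, sodium-dependent exchangers of neutral amino acids, of which ASCT1 carries alanine, serine and cysteine and ASCT2 is a main route of glutamine into tumour cells. Both were lower with the *FN1* 3′-UTR, and they were the members with the largest fold change and with the largest difference in level. *SLC1A4* (chr2:64988477-65023865, forward strand, GRCh38) had 0.722, 0.791 and 0.661 RPKM in HGC27-FN1 3′-UTR libraries 1 to 3 and 1.64, 1.61 and 1.42 RPKM in HGC27-control libraries 1 to 3. The lowest control library was well above the highest HGC27-FN1 3′-UTR library. These values rest on 82 to 134 reads per library in HGC27-FN1 3′-UTR cells and on 254 to 364 reads in control cells. The control mean was 2.14-fold higher, and the log2 fold change was -1.0 (SE 0.10). With a pseudocount of 1 in place of 0.1 the log2 fold change of this weakly expressed gene was -0.57.

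*SLC1A5* (chr19:46774883-46788594, reverse strand) had 45.2, 44.4 and 44.9 RPKM in HGC27-FN1 3′-UTR libraries and 62.2, 65.3 and 67.6 RPKM in control libraries. The HGC27-FN1 3′-UTR libraries lay close together and far below the controls. The mean was 31.1% lower, with a log2 fold change of -0.53 (SE 0.036). The *SLC1A5* to *SLC1A4* ratio of RPKM was 62.2 ± 5.84 with the *FN1* 3′-UTR and 42.1 ± 5.09 in control cells (SD, n = 3 each), without overlap between libraries. *SLC1A5* shares 780 bases of exon, 23.4% of its exon length, with the antisense gene *CTB-147N14.6* on the opposite strand. Whether reads were counted by strand is not given in the sources used here, so reads of the pair may not have been told apart. *CTB-147N14.6* was at 24.0 ± 1.03 RPKM against 34.6 ± 2.49 RPKM, also lower in every HGC27-FN1 3′-UTR library.

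*SLC3A2*, the heavy chain, and its SLC7 light chains showed different patterns. *SLC3A2* (chr11:62856102-62888875, forward strand) had 46.1, 43.6 and 44.4 RPKM in HGC27-FN1 3′-UTR libraries and 52.4, 54.6 and 52.5 RPKM in control libraries. The groups did not overlap, with a mean 15.9% lower and a log2 fold change of -0.25 (SE 0.033). *SLC7A5* (chr16:87830023-87869488, reverse strand) encodes LAT1, the light chain that brings leucine and other large neutral amino acids into the cell in exchange for glutamine. It had the highest RPKM of the members in both groups. The values were 115.9, 109.7 and 104.8 RPKM in HGC27-FN1 3′-UTR libraries and 110.2, 120.9 and 116.0 RPKM in control libraries. The groups overlapped, since HGC27-FN1 3′-UTR library 1 lay above control library 1. The log2 fold change of -0.07 (SE 0.050) ranged from -0.11 without HGC27-FN1 3′-UTR library 1 to -0.04 without library 3. The pseudogenes *SLC7A5P1* and *SLC7A5P2*, whose reads can be confused with those of *SLC7A5*, were at 5.16 and 6.82 RPKM with the *FN1* 3′-UTR, against 5.53 and 7.19 RPKM in control cells.

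*SLC7A11* (chr4:138164097-138242349, reverse strand) encodes xCT, the light chain that imports cystine in exchange for glutamate and feeds glutathione synthesis. It had 5.58, 4.92 and 4.96 RPKM in HGC27-FN1 3′-UTR libraries and 4.87, 4.76 and 4.79 RPKM in control libraries. All HGC27-FN1 3′-UTR libraries were above the controls, but library 1 stood apart and the other two exceeded the highest control by little. The log2 fold change was 0.10 (SE 0.059), and without HGC27-FN1 3′-UTR library 1 it was 0.04. *SLC7A11-AS1*, an antisense gene that shares 865 bases of exon with *SLC7A11*, was at 1.15 ± 0.19 RPKM against 1.12 ± 0.082 RPKM.

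The 6 light chains that pair with *SLC3A2* (*SLC7A5*, *SLC7A6*, *SLC7A7*, *SLC7A8*, *SLC7A10* and *SLC7A11*) summed to 134.6 ± 5.19 RPKM with the *FN1* 3′-UTR and to 139.1 ± 5.67 RPKM in control cells (SD, n = 3 each), with overlapping libraries. The ratio of this sum to *SLC3A2* was 3.01 ± 0.076 in HGC27-FN1 3′-UTR cells, between 2.92 and 3.07, and 2.62 ± 0.067 in control cells, between 2.54 and 2.67. The heavy chain transcript was thus lower relative to the light chains in every HGC27-FN1 3′-UTR library. *SLC7A5* made up 81.8% ± 1.0 of the light chain sum in HGC27-FN1 3′-UTR cells and 83.1% ± 0.54 in control cells. *SLC7A11* made up 3.82% ± 0.15 and 3.46% ± 0.18, so the leucine carrier held most of the summed RPKM of the light chains in both groups. These are transcript levels, and the proteins were not measured here.

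**Figure D2:**
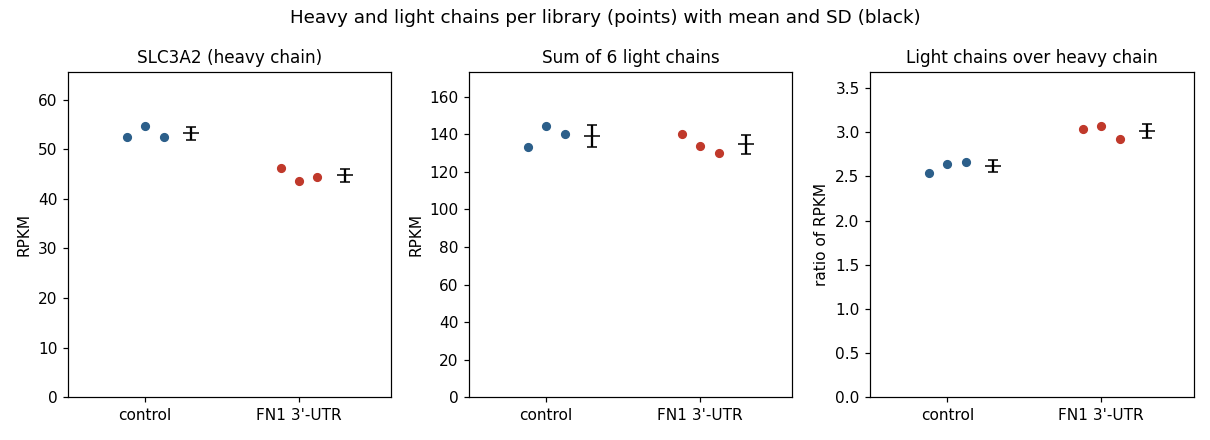
RPKM of the heavy chain *SLC3A2*, summed RPKM of its 6 light chains, and the ratio of light chains to heavy chain (y axes, from 0) in each HGC27-control library (blue) and HGC27-FN1 3′-UTR library (red), with mean and SD in black. The heavy chain is lower and the ratio higher in all 3 HGC27-FN1 3′-UTR libraries, 2.92 to 3.07 against 2.54 to 2.67, while the light chain sums overlap.

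*SLC7A1* (chr13:29509410-29595688, reverse strand) encodes CAT1, the carrier for arginine and lysine, which needs no heavy chain. It had 10.5, 9.75 and 10.0 RPKM in HGC27-FN1 3′-UTR libraries and 12.2, 13.0 and 13.2 RPKM in control libraries. Every HGC27-FN1 3′-UTR library was lower, with a mean 21.0% lower and a log2 fold change of -0.34 (SE 0.047). *SLC43A1* (chr11:57484534-57515786, reverse strand) encodes LAT3, which carries branched-chain amino acids by facilitated diffusion without exchange. It had 2.42, 2.75 and 2.96 RPKM in HGC27-FN1 3′-UTR libraries and 3.31, 3.56 and 3.36 RPKM in control libraries. The HGC27-FN1 3′-UTR libraries were lower but spread more widely than for most members, and the log2 fold change was -0.32 (SE 0.082).

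The sodium-coupled carriers of the SLC6 and SLC38 families differed from each other. *SLC6A9* (chr1:43991500-44031467, reverse strand) encodes GLYT1, the glycine transporter. It had 2.05, 2.18 and 2.19 RPKM in HGC27-FN1 3′-UTR libraries and 3.12, 3.23 and 3.24 RPKM in control libraries. The groups were clearly apart, the mean was 33.0% lower and the log2 fold change was -0.56 (SE 0.055), or -0.42 with a pseudocount of 1. *SLC6A9* shares 404 bases of exon with *CCDC24* on the opposite strand, which was at 1.46 ± 0.063 RPKM against 1.65 ± 0.12 RPKM.

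*SLC38A1* and *SLC38A2* encode SNAT1 and SNAT2, which take up glutamine and alanine together with sodium, and *SLC38A2* is known as the carrier that starved cells induce. They lie 88.2 kb apart on the reverse strand of chromosome 12, at chr12:46183063-46270017 and chr12:46358189-46372867. *SLC38A1* had 12.5, 12.8 and 12.6 RPKM in HGC27-FN1 3′-UTR libraries and 12.6, 13.4 and 13.0 RPKM in control libraries. *SLC38A2* had 7.03, 7.75 and 7.39 RPKM in HGC27-FN1 3′-UTR libraries and 6.56, 7.10 and 6.74 RPKM in control libraries. Both overlapped between the groups, with log2 fold changes of -0.04 (SE 0.035) and 0.12 (SE 0.052). The *SLC38A1* to *SLC38A2* ratio was 1.71 ± 0.069 against 1.91 ± 0.023, lower in every HGC27-FN1 3′-UTR library.

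**Figure D3:**
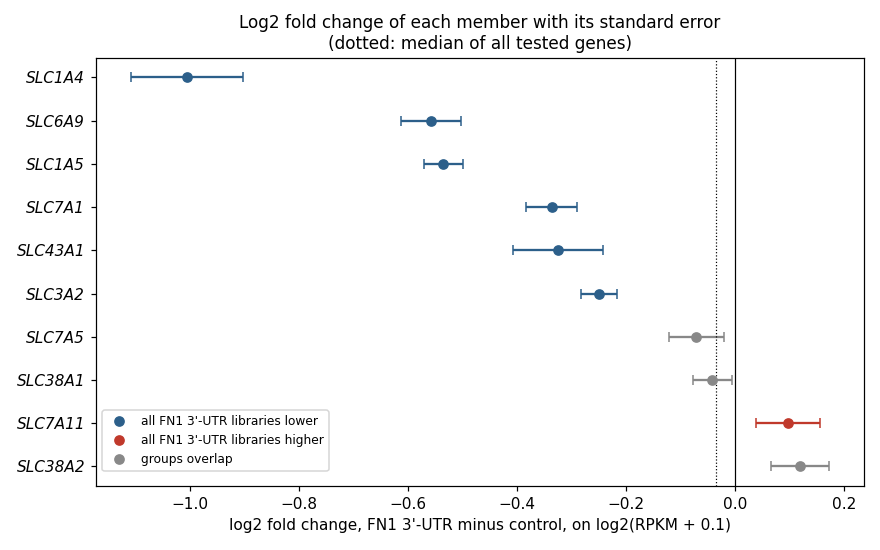
Log2 fold change of each of the 10 genes, HGC27-FN1 3′-UTR minus control, on the log2(RPKM + 0.1) scale, with its standard error (bars), where blue marks genes lower in all HGC27-FN1 3′-UTR libraries, red the gene higher in all, and grey genes whose groups overlap. The values run from -1.0 for *SLC1A4* to 0.12 for *SLC38A2*, and the dotted line is the median of all genes tested, -0.04.

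By RPKM, *SLC7A5* came first in both groups, followed by *SLC1A5* and *SLC3A2*, then *SLC38A1*, *SLC7A1*, *SLC38A2*, *SLC7A11*, *SLC43A1*, *SLC6A9* and *SLC1A4*. The order of the means was the same in HGC27-FN1 3′-UTR and in control cells. Neighbours in that order had non-overlapping libraries except *SLC38A1* and *SLC7A1* in control cells (13.0 and 12.8 RPKM), and *SLC1A5* and *SLC3A2* (44.8 and 44.7 RPKM) in HGC27-FN1 3′-UTR cells. In control cells *SLC1A5* stood apart from *SLC3A2*, at 65.0 ± 2.75 RPKM against 53.2 ± 1.26 RPKM.

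Together the 10 genes gave 240.5 ± 6.82 RPKM with the *FN1* 3′-UTR and 279.5 ± 9.47 RPKM in control cells. They made up 79.8% ± 0.81 and 82.3% ± 0.16 of the summed RPKM of all amino acid transporters of the plasma membrane that were listed. That whole sum was 301.4 ± 5.46 RPKM with the *FN1* 3′-UTR and 339.6 ± 11.2 RPKM in control cells, a net difference of 38.2 RPKM in which rises offset part of the falls. *SLC1A5* was lower by 20.2 RPKM, which is 52.8% of that net difference. *SLC3A2* was lower by 8.46 RPKM (22.1%), *SLC7A5*, whose groups overlapped, by 5.57 RPKM (14.6%) and *SLC7A1* by 2.68 RPKM (7.01%). *SLC1A4*, with the largest fold change of the members, was lower by 0.830 RPKM (2.17%).

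Within groups the deviations of the members from their group means were compared in pairs. Over the 45 pairs of members, the correlation of their log2 deviations from the group means across the 6 libraries had a median of 0.10 and ranged from -0.92 to 0.87, with 14 pairs above 0.5 and 5 below -0.5. These values are a description over few libraries, and the genes of a pair share each library's depth and preparation. With so few libraries, and no other gene pairs set beside them, they do not show whether the members move together. The largest single deviation was 0.15 on the log2 scale, for *SLC43A1*.

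The study linked the *FN1* 3′-UTR to 4 miRNAs, hsa-let-7i-5p, hsa-miR-629-5p, hsa-miR-423-5p and hsa-miR-296-3p, and 1 annotated 3′-UTR per gene in GENCODE release 29, that of the transcript with the longest coding sequence, was searched for the 7 letters that pair with bases 2 to 8 of each. The 3′-UTR searched was short in some members, with 17 bases in *SLC6A9*, 167 in *SLC3A2* and 402 in *SLC38A1*, and longer 3′-UTRs of their other transcripts were not searched. The let-7i-5p sequence of RefSeq is shown with this seed in capitals, above the matching site found in *SLC1A4*, at position 1307 of its 2719 bases of 3′-UTR.
hsa-let-7i-5p: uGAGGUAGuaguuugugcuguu
*SLC1A4* site: tcacctgcctcttacCTACCTCagagg
The let-7i-5p letters occurred in 1 of the 10 3′-UTRs searched and in 9.29% of the 12810 tested genes with a 3′-UTR. Those for miR-296-3p occurred in *SLC7A5* and *SLC38A2* (7.80% of tested genes), those for miR-423-5p in *SLC7A1* (14.3%) and those for miR-629-5p in 0 of the 10 3′-UTRs searched (6.68%). *SLC1A4*, with the let-7i-5p letters, and *SLC7A1*, with the miR-423-5p letters, were lower in every HGC27-FN1 3′-UTR library. The pair with the miR-296-3p letters overlapped between groups. The matches are letters only and show no pairing in these cells.

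Amino acid transporters outside the 10 genes were tested as a list of 58, of which 55 had a row and 30 were expressed above the minimum. In limma, 3 fell, 2 rose and 25 did not pass an adjusted p of 0.05, beside 7.36% of all tested genes that fell and 5.62% that rose, and their median log2 fold change was -0.02. *SLC1A3*, a carrier of glutamate and aspartate in the family of *SLC1A4* and *SLC1A5*, rose from 5.96 ± 0.015 RPKM to 8.97 ± 0.28 RPKM (log2 fold change 0.58, adjusted p = 9.27e-04), opposite in direction to those members. It kept its call in all 13 alternative fits. *SLC7A2*, a cationic carrier related to *SLC7A1*, fell from 11.9 ± 0.72 to 9.92 ± 0.080 RPKM (log2 fold change -0.26, adjusted p = 0.021). *SLC38A3*, a glutamine carrier related to *SLC38A1* and *SLC38A2*, fell from 1.05 ± 0.11 to 0.672 ± 0.064 RPKM (log2 fold change -0.57, adjusted p = 0.029). Both of these calls were lost with the replicate number as a block (adjusted p = 0.056 and 0.060). They were lost also without each of the HGC27-FN1 3′-UTR libraries and control libraries 2 and 3 in turn (adjusted p from 0.059 to 0.070 for *SLC7A2* and from 0.057 to 0.11 for *SLC38A3*). The *SLC38A3* call was lost with no filter on low values too (adjusted p = 0.059). The other two calls were *SFXN3*, a mitochondrial serine carrier that rose by 0.31 on the log2 scale (adjusted p = 0.017), and the vesicular glutamate carrier *SLC17A7*, which fell from 0.410 ± 0.042 to 0.180 ± 0.033 RPKM (adjusted p = 0.024) and, being below 1 RPKM, was named after its values were seen. *SFXN3* was lost with the block (adjusted p = 0.062) and without control library 1 (0.050) or 2 (0.071), and *SLC17A7* with the block (0.076) and without every library but HGC27-FN1 3′-UTR library 2 (0.052 to 0.089).

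Amino acids taken up by these carriers are sensed on the lysosome by the Rag GTPases and their partners, which switch on mTORC1. Of the 37 genes of this pathway, all expressed, 6 fell, 0 rose and 31 did not pass in limma, where 7.36% of all tested genes fell and 5.62% rose. The median log2 fold change of the list was -0.10. At an unadjusted p under 0.05, 13 fell and 2 rose, where 17.6% of all tested genes fell and 12% rose. With voom on recovered reads 11 fell and 2 rose, where 13.2% of all tested genes fell and 8.76% rose. The largest changes were those of *DDIT4*, an inhibitor of mTORC1 (38.0 ± 0.76 to 13.4 ± 0.63 RPKM, log2 fold change -1.50, adjusted p = 9.89e-05), and of *SESN2*, the leucine sensor (log2 fold change -0.73, adjusted p = 0.0028). The Rag GTPase gene *RRAGD* fell by 0.59 (adjusted p = 0.0095) and *FNIP2*, a partner of folliculin, by 0.46 on the log2 scale (adjusted p = 0.017). The *FNIP2* call was lost with the replicate block (adjusted p = 0.061), without HGC27-FN1 3′-UTR library 1 or 3 and without control library 1 or 2 (adjusted p from 0.052 to 0.075).

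In the integrated stress response, 17 of 24 genes fell, 3 rose and 4 did not pass, where 7.36% of all tested genes fell and 5.62% rose. This list, like the others, was chosen with earlier results of these data known, so nothing is read from the difference in shares. The median log2 fold change was -0.45, beside -0.29 for the 10 transporters and -0.04 over all genes. *ATF4* fell from 243.3 ± 3.66 to 152.8 ± 0.70 RPKM (log2 fold change -0.67, SE 0.025, adjusted p = 1.90e-04). *ASNS*, asparagine synthetase and a known target of ATF4, fell from 25.3 ± 0.28 to 10.6 ± 0.052 RPKM (log2 fold change -1.25, adjusted p = 6.61e-05). The stress-induced *NUPR1* fell by 1.27 (adjusted p = 1.23e-04) and the peptide hormone gene *ADM2* by 1.24 on the log2 scale (adjusted p = 5.39e-04), and *DDIT4* stands in this list too. The genes that rose were *PPP1R15A* (GADD34), the phosphatase subunit that reverses the response (log2 fold change 0.50, adjusted p = 0.0033), *EIF2S1*, the translation factor that the stress kinases phosphorylate (0.19, adjusted p = 0.012), and the kinase gene *EIF2AK2* (0.18, adjusted p = 0.033). The calls of *ATF4*, *ASNS*, *NUPR1*, *ADM2*, *DDIT4*, *SESN2*, *RRAGD* and *PPP1R15A* were kept in all 13 alternative fits. The *EIF2S1* and *EIF2AK2* calls were lost with the replicate block (adjusted p = 0.059 and 0.074), *EIF2S1* also without HGC27-FN1 3′-UTR library 1 (0.053) or control library 2 (0.060), and *EIF2AK2* also without each library but control library 1 (0.070 to 0.12).

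Cystine imported by xCT feeds glutathione, and 14 of the 17 genes of glutathione synthesis and use were expressed above the minimum. Of these 3 fell, 2 rose and 9 did not pass, where 7.36% of all tested genes fell and 5.62% rose. The median log2 fold change of the list was -0.02. *CHAC1*, which degrades glutathione, fell by 1.04 on the log2 scale (adjusted p = 0.012), *CTH*, which makes cysteine from cystathionine, by 0.45 (adjusted p = 0.011), and *GGCT*, which acts on products of glutathione breakdown, by 0.15 (adjusted p = 0.038). *CHAC1* and *CTH* are also in the integrated stress response list. *GGT1*, which cleaves glutathione outside the cell, rose by 0.47 (adjusted p = 0.047) and *TXNRD1*, thioredoxin reductase, by 0.18 on the log2 scale (adjusted p = 0.031). All 5 calls were lost with the replicate block, with adjusted p of 0.056, 0.058, 0.090, 0.057 and 0.055 in the order given. *CTH* was lost also without control library 2 (adjusted p = 0.053), and *TXNRD1* without each library but control library 1 (adjusted p from 0.051 to 0.11). *GGCT* and *GGT1* were lost without each library in turn (adjusted p from 0.053 to 0.12 and from 0.057 to 0.13). With no filter on low values *GGCT* and *GGT1* were lost too (adjusted p = 0.055 and 0.079), and *GGCT* with median-ratio scaling (0.12).

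**Figure D4:**
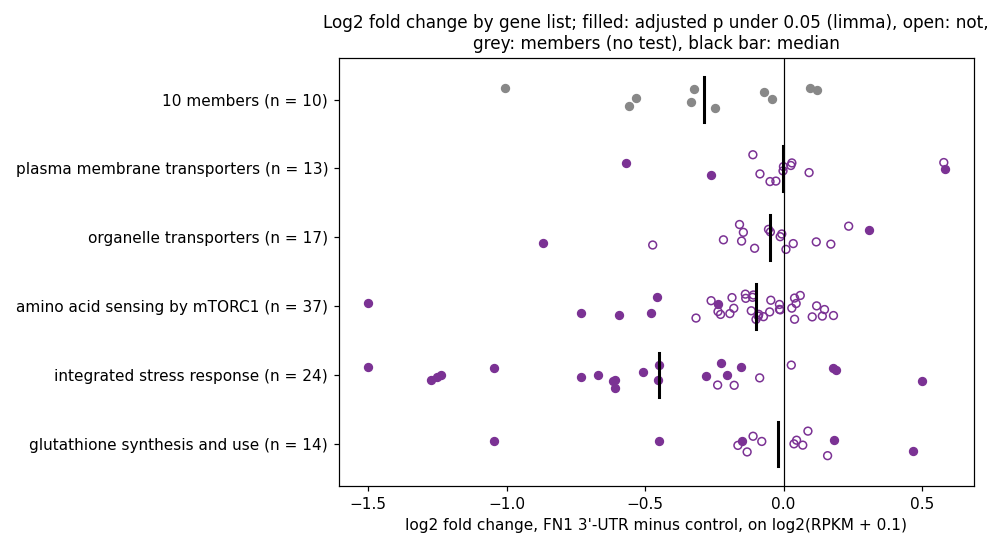
Log2 fold change, HGC27-FN1 3′-UTR minus control, of the 10 members (grey, no test) and of the genes of the other lists (purple, filled where the limma adjusted p was under 0.05), each point 1 gene and each black bar the median of its list. The median lies at -0.29 for the members and at -0.45 for the integrated stress response, and near 0 for the other transporters.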

How the data were processed

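RNA-seq of 6 HGC27 libraries (3 HGC27-FN1 3′-UTR, 3 HGC27-control) was analysed, with groups and replicate numbers taken from the sample labels. The authors prepared stranded mRNA libraries and deposited RPKM per gene on GRCh38 coordinates, 1 table per library. The submitters' processing notes name Trimmomatic 0.36, STAR 2.5.3a and featureCounts of Subread 1.5.1. The strand setting of the counting and the handling of duplicates are not given in the sources used here. RPKM multiplied by exon length was a whole number of reads for 100% of values (tolerance 0.05 reads), which gave the depths. The reads of same-group libraries gave a chi-square per gene of 2.67 to 6.19, above sampling noise.

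Values were transformed to log2(RPKM + 0.1), which understates the change of low genes, and 23299 genes that reached 0.1 RPKM in no fewer than 3 libraries were fitted with limma 3.58.1 in R 4.3.3 (group only, trend in the prior variance, two-sided, Benjamini-Hochberg over all genes). The fit was tested on simulated data. An exact permutation test of 3 against 3 cannot go below p = 0.1 and was not used. The members and all lists were chosen with earlier results of these data known, and the lists share genes. Named genes outside the members were those with an adjusted p under 0.05 and a mean of at least 1 RPKM in either group, up to 6 per direction for transporters and up to 4 per other list, with *FN1*, *ATF4* and the *SLC7A5* pseudogenes always named. Older symbols were matched through RefSeq synonyms, and *SLC6A5*, *SLC6A14*, *SLC17A6*, *TFF2*, *GKN1* and *CD3E* were not analysed here.

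The 13 alternative fits changed the pseudocount or the filter, used median-ratio scaling or a replicate block, or left out each library. Among them, limma's voom on the recovered reads was added after the data were examined. The study's criterion for changed genes was a further alternative, applied to the main fit. Python 3.11.15, pandas 2.3.3, numpy 2.4.6 and matplotlib 3.10.9 were used.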

Additional observations from a re-analysis of the deposited data

How the results depend on the processing

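No member changed the sign of its log2 fold change in any of the 13 alternative fits. The median of the 10 members, -0.29, was -0.25 with a pseudocount of 1 and between -0.30 and -0.26 with 1 library left out. Over all genes, 1310 rose and 1715 fell. With the replicate number as a block 564 rose and 598 fell, with voom on recovered reads 2042 and 3066, with 1 library left out 501 to 927 and 470 to 1015, and at an absolute log2 fold change above 1 with an unadjusted P under 0.05, 385 and 190. Median-ratio scaling gave 1696 and 1330, so that the share of rises among the calls was 56.0% in place of 43.3%, while the median of all genes moved from -0.04 to -0.0031. The other transporters (2 rose, 3 fell) gave 1 and 0 with the block, 4 and 1 at a mean RPKM of at least 1, 5 and 5 with voom, 0 and 0 at the fold criterion, and 1 to 2 and 0 to 2 with 1 library left out, with 4 rises under median-ratio scaling. The fewest rises (1) came without control library 1 or 2, and 0 fell without HGC27-FN1 3′-UTR library 3 or control library 2 or 3, 1 without HGC27-FN1 3′-UTR library 1 or 2. Of the mTORC1 list (0 rose, 6 fell), 2 rose at a mean RPKM of at least 1, with median-ratio scaling and with voom. In that list 3 fell with the block, 11 with voom and 1 at the fold criterion, 0 to 1 rose (1 without control library 3) and 3 to 5 fell with 1 library left out (3 without HGC27-FN1 3′-UTR library 1 or 3 or control library 2). Of the integrated stress response list (3 rose, 17 fell), 1 rose with the block, 0 rose and 5 fell at the fold criterion, and 1 to 3 rose and 13 to 17 fell with 1 library left out, with 1 rise without HGC27-FN1 3′-UTR library 1 or control library 2. Of the glutathione list (2 rose, 3 fell), 1 rose with no filter and 4 with median-ratio scaling, 0 and 0 with the block, 0 rose and 1 fell at the fold criterion, and 0 to 1 rose and 1 to 2 fell with 1 library left out (1 fell without control library 2, 1 rose without control library 1 or 3 and 0 rose without any of the other libraries). The block fits fewer residual degrees of freedom, and leaving out a library fewer samples. For the other alternatives the cause was not tested. The replicate numbers did not pair the libraries, since deviations of same-numbered libraries from their group means correlated at 0.0024, 0.021 and 0.010 over 23299 genes. Of the 22 genes called in the lists and named, *FN1* included, 9 were called in all 13 alternative fits. The study's criterion for changed genes is not among these fits. Of those 9, *SLC1A3*, *ATF4*, *SESN2*, *RRAGD* and *PPP1R15A* do not reach its absolute log2 fold change above 1. Of the 7 cell type markers called, all but *COL1A1* were called in every alternative fit that tested them. *KRT19*, among the 7, passed the main filter only through the HGC27-FN1 3′-UTR libraries and was tested in 9 fits. Count models planned for the recovered reads were not run, because the deposited values were RPKM, and voom was used in their place. Depth limits *SLC1A4* most, with 82 reads in its lowest library.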
